A study of Homo sapiens with 8 samples.

Results

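769-P is an established human cell line from a clear cell renal cell carcinoma, a kidney cancer that arises from the proximal tubule. Its response to branched-chain amino acids (BCAA: leucine, isoleucine and valine) was measured by RNA sequencing in 4 of the 8 libraries of the series, 2 from cells given BCAA and 2 from cells given none. The treatment lasted 16 hours, with leucine and isoleucine each at 0.38 mM and valine at 0.17 mM, and the 4 other libraries of the series hold the same 2 conditions in CAKI-1, a second renal carcinoma line. The medium without BCAA was prepared from an RPMI 1640 powder that lacks amino acids and 10% dialyzed serum. The sources used here do not state whether the other amino acids were put back. Of the 25431 genes listed for 769-P, 22391 had a mean value of 1 or more over the 4 libraries and were tested. Their identity was read from GENCODE 29, and positions are given on GRCh38.

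Cells sense a shortage of amino acids in several ways. Uncharged transfer RNAs activate the kinase GCN2, which slows translation but favours translation of the transcription factor ATF4. ATF4 in turn switches on genes for the uptake and synthesis of amino acids and for the charging of transfer RNAs. Leucine is also read by the kinase complex mTORC1, which drives lipid, nucleotide and protein synthesis when amino acids are plentiful. In clear cell renal carcinoma, loss of the tumour suppressor VHL commonly leaves hypoxia-inducible factors active, so that targets such as VEGFA are high at normal oxygen.

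Each value is the number of reads on a gene divided by a size factor of its library, and is called a normalized value below. It is not divided by gene length, so levels are compared between libraries and not between genes. The listed genes held 64256834 and 55829324 reads in the libraries with BCAA (called BCAA 1 and BCAA 2) and 39062721 and 40130258 in those without (no BCAA 1 and no BCAA 2), so that deeper sequencing went with BCAA. Replicates of a condition differed by more than sampling noise and were counted as separate samples (chi-square over its degrees of freedom, 8.3 with BCAA and 3.36 without). Nothing in the labels says that they came from separate cultures, so p-values measure only the spread between these libraries.

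BCAA changed the RNA of 8605 genes, 38.4% of those tested. By limma on log2(value + 1) at a Benjamini-Hochberg adjusted p of 0.05, 4536 genes were higher with BCAA (20.3% of those tested) and 4069 were lower (18.2%). At a change of at least 2-fold in addition, 989 genes (4.42%) were higher and 971 (4.34%) were lower, so that most calls were of smaller changes. The median absolute log2 fold change was 0.52 among the genes called higher and 0.55 among those called lower. The share of genes called grew with their level, from 4.02% at mean values of 1 to 10 to 79.1% at 10000 and over. At mean values of 1000 to 10000, 38.3% were higher and 30% lower. Of the protein-coding genes tested, 28.6% were higher and 23.5% lower. Counts of the gene lists below are to be read beside these shares. With every library thinned to 39062721 reads, 4020 genes were higher and 3700 lower. Leaving out a library left 1 sample on its side, assumed to vary like the other group, and reduced the calls to 1478 higher and 1456 lower without BCAA 1, 1632 and 1353 without BCAA 2, 1173 and 658 without no BCAA 1, and 1385 and 743 without no BCAA 2. These fits have little power, and even genes with large, steady changes passed only narrowly in 1 or more of them. A lost call therefore does not by itself show that a change rests on the library left out. Counts given below with 1 library left out follow this order, and a value in brackets after a gene is its log2 fold change unless named otherwise.

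**Figure D1:**
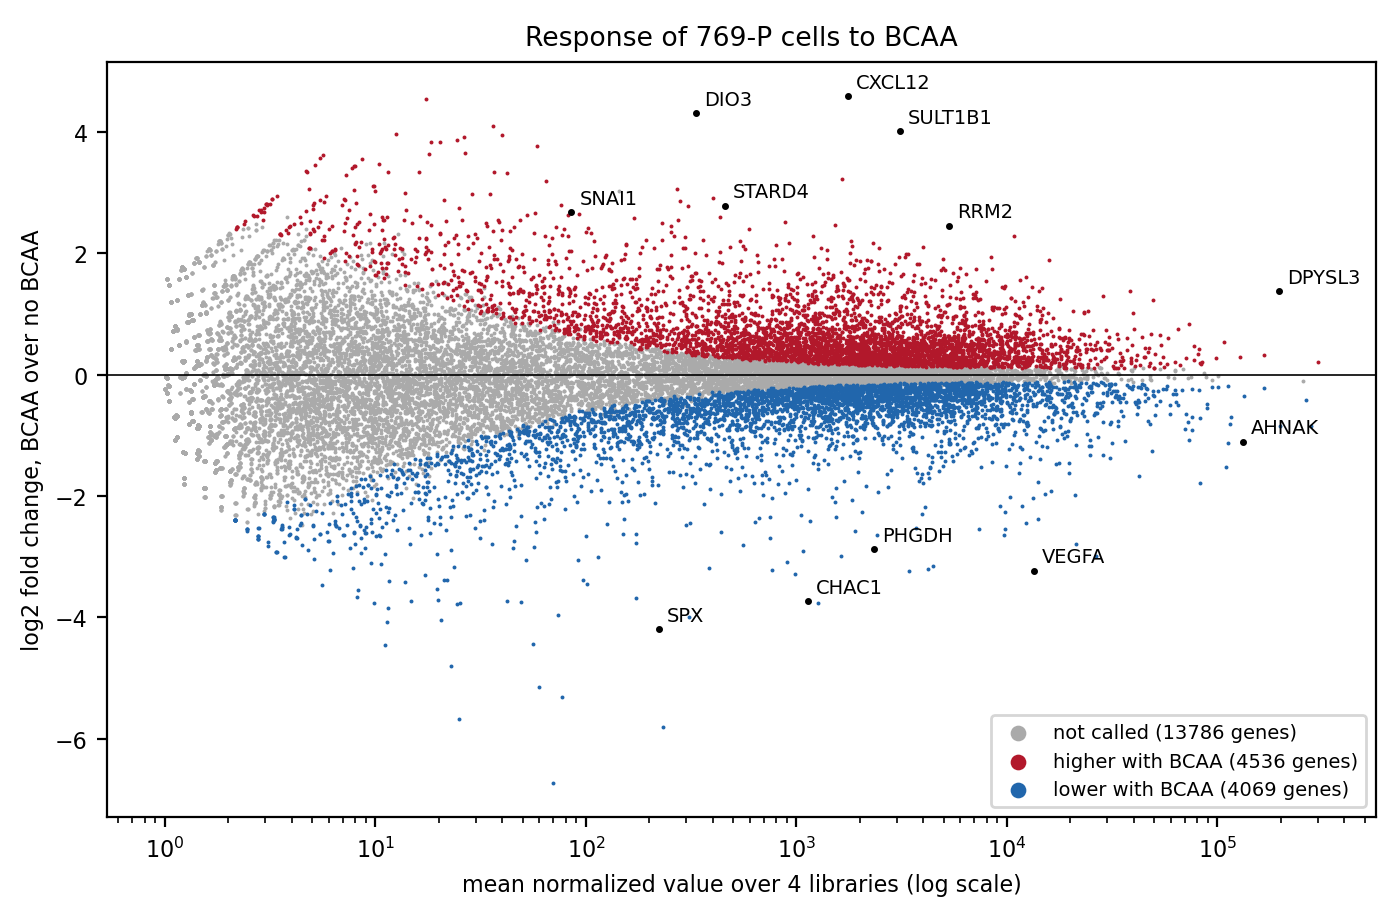
Log2 fold change (BCAA over no BCAA, vertical axis) against mean normalized value over the 4 libraries (horizontal axis, log scale) for the 22391 genes tested in 769-P. Red points are the 4536 genes called higher with BCAA, blue points the 4069 called lower and grey points the rest, and calls of small changes become frequent to the right, where genes have many reads.

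Markers of the renal lineage were present in every library. PAX8, a transcription factor of kidney epithelium, stood at 15237 and 14547 with BCAA and 23239.8 and 23271 without (-0.64), and PAX2 at 1165 and 1172 with BCAA and 933 and 984 without (0.29). Of 13 renal carcinoma markers, 4 were higher with BCAA and 5 lower (median 0.08). CD70, a ligand of the TNF family common in this tumour, was higher, at 7017 and 6528 with BCAA and 3284 and 3310.4 without (1.04), as was the keratin KRT19, on 14 and 10 reads with BCAA and 1 and 2 without. VEGFA (-3.23) and EGLN3 (-0.87) were among those lower. NDUFA4L2, a hypoxia-induced gene common in this tumour type, had 1 and 3 reads with BCAA and 1 and 1 without, and CA9 was not analysed here. Reads were scarce for the leukocyte and endothelial markers named here. PTPRC of leukocytes had 6 and 1 reads with BCAA and 0 and 0 without. CD68 of macrophages had 9 and 3 reads with BCAA and 2 and 0 without. PECAM1 of endothelium had 8 and 12 reads with BCAA and 2 and 1 without. The stromal marker ACTA2 was not scarce, at 4544 and 4095 with BCAA and 3683 and 3784 without. All 7 markers of other cell types tested, stromal ones included, took 0.0101% and 0.00927% of the reads with BCAA and 0.00815% and 0.00827% without. The stromal genes PDGFRB, at 152 and 152 with BCAA and 33.5 and 48.9 without (1.88), and ACTA2 (0.21) were called higher with BCAA, and these calls were lost for PDGFRB (1.61 to 2.15) without BCAA 1, BCAA 2 or no BCAA 1 and ACTA2 (0.13 to 0.28) without any 1 library, where the range of the log2 fold change over the 4 fits stands in brackets. The part of other cells in the results was not tested. In bulk RNA, more cells of a type or cell cycle phase and more RNA per cell cannot be told apart.

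The largest rise among well-measured genes was that of CXCL12. This gene (ENSG00000107562, chr10:44370165-44386493, reverse strand), which encodes a chemokine that attracts cells carrying the receptor CXCR4, stood at 3254 and 3477 with BCAA and 150.3 and 127 without. Its log2 fold change was 4.59 (SE 0.1, adjusted p = 4.4e-11). DIO3, the deiodinase that inactivates thyroid hormone, rose from 41 and 23.2 to 667 and 599 (log2 fold change 4.31). SULT1B1, a sulfotransferase of thyroid hormones and phenols, rose from 342 and 377 to 6053 and 5611 (4.02). The libraries of the 2 conditions did not overlap in these genes, which the rule that chose the 15 largest rises and falls required, and over all genes tested 33.6% were higher and 33.5% lower with BCAA without overlap. The fold changes of the 3 genes were 24.2, 19.8 and 16.2 on the scale of value + 1. STARD4, a carrier of cholesterol, was among the 15 largest and is described with its pathway. The collagenase MMP1 rose from 53.4 and 61.1 to 535 and 434 (3.05), and COL17A1, a transmembrane collagen of hemidesmosomes, from 55.9 and 40.4 to 282 and 298 (2.58). The cell cycle genes E2F2 and CDKN2C and the EMT regulator SNAI1 stood there too. Others were METTL7A (2.91), LIMCH1 (2.87), TMEM37 (2.79), ANKS4B (2.65) and the lipid phosphatase PLPP4 (2.63). Calls were lost for DIO3 (3.91 to 4.71), LIMCH1 (2.43 to 3.31), TMEM37 (2.69 to 2.89) and COL17A1 (2.35 to 2.81) without either BCAA library, ANKS4B (2.08 to 3.21) without any 1 library and PLPP4 (2.39 to 2.87) without BCAA 1, BCAA 2 or no BCAA 2.

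The largest falls with BCAA mark genes that were high in the cells without it. They were led by SPX, a peptide hormone precursor, at 16.7 and 29.1 with BCAA and 438 and 404 without (log2 fold change -4.19), the kinase gene RPS6KA2 at 37.9 and 33.3 with BCAA and 564 and 593 without (-3.99) and ITPKA, an inositol trisphosphate kinase, at 178 and 169 with BCAA and 2395 and 2347 without (-3.76). CHAC1, DDIT4 and NUPR1 of the ATF4 axis, the transporter SLC1A4, the hormone subunit INHBE and the hypoxia genes VEGFA and EPAS1 were also among the 15 and are described below. PCK2, the mitochondrial phosphoenolpyruvate carboxykinase, stood at 664 and 644 with BCAA and 6095 and 6236 without (-3.23, adjusted p = 9.3e-12). UNC13A, a synaptic vesicle priming factor (-3.68), LAMP3, a lysosomal membrane protein (-3.46), EDN2, a vasoconstrictor peptide (-3.29), and KIF21B, a kinesin (-3.18), completed the 15. SPX lost its call without either no BCAA library, with log2 fold changes of -4.58 to -3.81 over the 4 fits.

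The 10 called genes with the highest values, not divided by length, among those that changed at least 2-fold were 3 higher and 7 lower with BCAA. DPYSL3, a cytoskeletal regulator, stood at 292422 and 272592 with BCAA and 107584 and 109850.0 without (1.38). The chaperones HSP90AA1 (1.24) and HSP90B1 (1.02) also rose. Those lower included the scaffold proteins AHNAK (-1.1), AKAP12 (-1.52) and PLEC (-1.07), the muscle-type protein IGFN1 (-1.78) and the ferritin heavy chain FTH1 (-1.25). IGFN1 stood at 35501 and 38686 with BCAA and 145330.0 and 111100.0 without, apart by condition but with a gap between the libraries without BCAA. Calls were lost for AHNAK (-1.19 to -1.01) and PLEC (-1.18 to -0.96) without either no BCAA library and IGFN1 (-1.97 to -1.58) without either BCAA library.

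The ATF4 axis was lower with BCAA almost throughout. Of 17 regulators tested, 16 were lower and 1 was higher, with a median log2 fold change of -1.75, where 18.2% of all genes tested were lower and 20.3% higher. CHAC1, an enzyme that degrades glutathione and a sensitive marker of ATF4 activity, stood at 158 and 156 with BCAA and 2103 and 2122 without. Its log2 fold change was -3.74 (SE 0.09, adjusted p = 6.7e-11), the deepest fall of the list. DDIT4, an inhibitor of mTORC1, stood at 903 and 902 with BCAA and 7951 and 8065 without (-3.15), and NUPR1, a stress-induced chromatin protein, at 178 and 199 with BCAA and 1619.7 and 1608 without (-3.09). The transcription factors ATF3 (364 ± 3.66 with BCAA and 2899 ± 123 without, mean ± SD, n = 2), DDIT3 (251 ± 13.4 with BCAA and 1897 ± 117 without) and CEBPB (1482 ± 70.2 with BCAA and 6719.7 ± 244 without) fell with log2 fold changes of -2.99, -2.91 and -2.18. The pseudokinase TRIB3, which feeds back on ATF4, had a log2 fold change of -2.38, and the phosphatase subunit PPP1R15A, which reverses the block of translation, -2.53. ATF4 itself was also lower, at 16234 ± 491 with BCAA and 31868 ± 577 without (-0.97, adjusted p = 3.9e-09). ATF5, a related factor, was the exception, at 1688 and 1719.7 with BCAA and 1199.9 and 1364 without (0.41), and its call was lost without BCAA 1, BCAA 2 or no BCAA 1 (0.32 to 0.51). Counts of lower members were 15, 15, 14 and 14 with 1 library left out.

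The promoters of the ATF4 axis and of the amino acid enzymes were searched for TGATGNAA, the core of the element that ATF4 binds together with C/EBP proteins, in windows of RefSeq (GRCh38.p14) from 250 bases before to 50 after each start site, on both strands. The motif lay in 4 of the 15 called members of the axis that have a window (CHAC1, ATF3, CEBPG and JDP2) and in 3 of 11 called members of the serine, asparagine, proline and folate list (ASNS, MTHFD1L and GOT1), against 4.46% of the 27305 genes with a window. NUPR1, TNFRSF10B, GPT2, PSPH, PYCR1 and SHMT2 were among the members not matched to a window. A match describes letters only and is not a binding site. The stretches around the motif are printed for the 2 members of each list that hold it and fell furthest, 5′ to 3′ along the gene, with the motif or its reverse complement in capitals. They lie in CHAC1 (chr15:40953232-40953299, forward strand), ATF3 (chr1:212565186-212565253, forward strand), ASNS (chr7:97872439-97872506, reverse strand) and MTHFD1L (chr6:150866327-150866394, forward strand). In this order the capitals begin 209, 191, 68 and 129 bases before the start site.
CHAC1: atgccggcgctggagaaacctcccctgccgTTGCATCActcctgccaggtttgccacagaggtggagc
ATF3: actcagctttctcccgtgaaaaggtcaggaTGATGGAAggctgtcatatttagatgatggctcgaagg
ASNS: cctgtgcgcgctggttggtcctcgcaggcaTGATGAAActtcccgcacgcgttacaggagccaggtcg
MTHFD1L: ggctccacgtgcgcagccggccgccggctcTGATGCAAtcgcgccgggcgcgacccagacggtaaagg

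Enzymes that make serine, asparagine and proline and load one-carbon units onto folate were mostly lower with BCAA. Of 21 tested, 13 were lower and 4 higher, with a median of -0.87. PHGDH, the first enzyme of serine synthesis, stood at 642 and 483 with BCAA and 3935 and 4246 without (-2.87, adjusted p = 1.8e-09). ASNS, the asparagine synthetase, stood at 3323 and 3432 with BCAA and 16438 and 15854 without (-2.26), and PSAT1, the second enzyme of serine synthesis, at 6963 and 6661 with BCAA and 25102 and 26390.4 without (-1.92). The mitochondrial folate enzyme MTHFD2 (-1.7) and its partner SHMT2 (-1.01) were lower, whereas the cytosolic enzymes SHMT1, at 3959 and 4239 with BCAA and 1337 and 1503 without (1.53), and MTHFD1 (0.58) rose. ALDH18A1, which starts proline synthesis, also rose (0.27). The list as a whole took 0.156% and 0.159% of the reads with BCAA and 0.286% and 0.286% without.

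Amino acid transporters were lower or not called with 1 exception. Of 22 tested, 12 were lower, 1 was higher and 9 were not called, with a median of -0.71. SLC1A4, a carrier of small neutral amino acids, stood at 139.5 and 156 with BCAA and 1317 and 1441 without (-3.21). SLC7A5, the light chain of the main leucine carrier, stood at 5583 and 5074 with BCAA and 36409 and 37635 without (-2.8, adjusted p = 9.3e-12), and its heavy chain SLC3A2 at 6182 ± 232 with BCAA and 24141 ± 6.21 without (-1.97). Both chains of the leucine carrier were thus higher in the cells without BCAA. SLC7A11, the cystine carrier (-2.17), SLC1A5, the glutamine carrier (-1.2), and the neutral amino acid carrier SLC6A15 (-2.44) were also lower. SLC38A2, a carrier known to rise in amino acid deprivation, stood at 16312 ± 246 with BCAA and 21239 ± 643 without (-0.38). SLC7A2, a carrier of arginine and lysine, was the 1 member higher with BCAA, at 67.5 and 91.5 with BCAA and 34.8 and 34.2 without (1.16). The 12 lower members became 8, 9, 6 and 6 with 1 library left out, and calls were lost for SLC6A15 (-2.74 to -2.13) without either no BCAA library and SLC7A2 (0.95 to 1.38) without any 1 library. SLC7A2 also lost its call with thinned reads (adjusted p = 0.057).

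Cytosolic enzymes that charge transfer RNAs were more often lower than higher with BCAA. Of 19 cytosolic synthetases tested, 11 were lower with BCAA and 5 higher, with a median of -0.45, and together they took 0.482% and 0.483% of the reads with BCAA and 0.758% and 0.752% without. WARS1, SARS1 and AARS1, for tryptophan, serine and alanine, led the falls, at -2.03, -1.62 and -1.33. WARS1 stood at 5389 and 5023 with BCAA and 20687 and 21890.1 without. Those for isoleucine and leucine were lower too, with IARS1 at -0.85 and LARS1 at -0.45, and VARS1 was not analysed here. FARSA (phenylalanine, 0.4), RARS1 (arginine, 0.38), QARS1 (0.25), HARS1 (0.15) and KARS1 (0.14) were higher. Of 16 mitochondrial synthetases, 6 (37.5%) were higher and 4 (25%) lower, with a median of 0.09, where 28.6% and 23.5% of protein-coding genes were. The called members lay between -0.34 in PARS2 and 0.46 in AARS2, with EARS2 at 0.34 and TARS2 at 0.28. With any 1 library left out, none of the mitochondrial members was called in this limma fit. In the same fits the 5 higher cytosolic members became 1, 1, 0 and 1 and the 11 lower 10, 10, 8 and 8, and FARSA lost its call (0.34 to 0.46).

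Stress-induced hormones were lower with BCAA, with 8 of 11 lower, 1 higher and a median of -1.76. INHBE, an activin subunit, stood at 19 and 13.7 with BCAA and 189 and 166 without (-3.38), and STC2, a glycoprotein induced by ATF4, at 147 and 130.0 with BCAA and 907 and 1041 without (-2.8). GDF15, a hormone that lowers appetite, stood at 6421 ± 186 with BCAA and 21807 ± 219 without (-1.76), and both ADM, adrenomedullin (-2.64), and its relative ADM2 (-1.63) were lower. FGF21 had 0 and 0 reads with BCAA and 6 and 4 without, and no fold is given for it. AREG, a ligand of the EGF receptor, was the 1 member higher, at 31302 and 33152 with BCAA and 19429 and 19017 without (0.74). INHBE lost its call without either no BCAA library (-3.6 to -3.16), and the 8 lower members became 7, 7, 5 and 5 with 1 library left out.

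Leucine sensors and parts of mTORC1 moved both ways. Of 31 genes tested, 13 (41.9%) were higher and 10 (32.3%) lower, with a median of 0.13. Of all genes tested at mean values of 1000 to 10000, 38.3% were higher and 30% lower, and of protein-coding genes 28.6% and 23.5%. SESN3, which had few reads, rose most (2.32), from 4.97 and 7.34 to 32.6 and 35.9. CASTOR2, a relative of the arginine sensor CASTOR1, stood at 217 and 185 with BCAA and 55.9 and 66 without (1.7). DEPTOR, an inhibitor within the complex, rose to 466 and 477 from 259.6 and 289.8 (0.78), and SAR1A, a small GTPase, rose by 0.62. Sestrins, which restrain mTORC1, went in opposite directions, with SESN2 lower at 1747 ± 9.59 with BCAA and 5888 ± 157 without (-1.75), and SESN1 (0.33) higher, with SESN3. EIF4EBP1, the repressor of translation that mTORC1 phosphorylates, stood at 4419 and 4407 with BCAA and 9416 and 9542 without (-1.1). The Rag GTPases RRAGA (-0.41), RRAGB (-0.46), RRAGC (-0.74) and RRAGD (-0.48), which bring mTORC1 to the lysosome, were all lower. Members called higher with 1 library left out numbered 1, 1, 1 and 2 and those lower 3, 3, 3 and 4, and calls were lost for CASTOR2 (1.58 to 1.82) without any 1 library, DEPTOR (0.7 to 0.86) without BCAA 1, BCAA 2 or no BCAA 1 and SAR1A (0.55 to 0.69) without either BCAA library.

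Both aminotransferases that start the breakdown of BCAA were lower with BCAA. Of 27 genes of BCAA breakdown tested, 12 were higher and 6 lower, with a median of 0.2. BCAT1, the cytosolic aminotransferase, was the largest change and the only one of 2-fold or more, at 544 and 546 with BCAA and 3155 and 3362 without (-2.58, adjusted p = 1.5e-10). BCAT2, the mitochondrial aminotransferase, was also lower, at 860.0 ± 46.9 with BCAA and 1418 ± 73.3 without (-0.72). BCKDHB, a subunit of the ketoacid dehydrogenase (0.6), DLD, its shared E3 subunit (0.48), MCCC2 of the leucine branch (0.61), ACAT1 (0.6) and MCEE (0.69) were higher. MCCC2 stood at 7297 and 7443 with BCAA and 4680.3 and 4964 without. HIBADH of the valine branch was lower (-0.53). The counts with 1 library left out were 5, 4, 3 and 5 higher and 3, 3, 1 and 1 lower. MCEE lost its call without any 1 library (0.32 to 1.06) and under 7 other settings tried.

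RNA of most genes for lipid synthesis was higher with BCAA. Of 25 genes for the synthesis and uptake of cholesterol, 23 were higher and none lower, with a median of 0.96, and 12 rose at least 2-fold. STARD4 (ENSG00000164211, chr5:111496033-111512590, reverse strand) rose from 122 and 108 to 745 and 851, with a log2 fold change of 2.79 (SE 0.13, adjusted p = 1e-08), and HMGCS1, which makes the precursor of mevalonate, from 1211 and 1187 to 3896 and 4111 (1.74). The regulator INSIG1 rose by 1.46 on the log2 scale and the transcription factor SREBF2 by 0.68. Of 16 genes for fatty acid synthesis, 12 were higher and 1 lower, with a median of 0.78. SCD, the stearoyl-CoA desaturase, stood at 15823 and 18879 with BCAA and 5684 and 5993 without (1.57), PNPLA3, a lipase, at 189.6 and 207 with BCAA and 70.8 and 48.9 without (1.73) and the elongase ELOVL6 at 1493 and 1674 with BCAA and 770.1 and 839 without (0.98). FASN stood at 16769 ± 1169 with BCAA and 12664 ± 404 without (0.4), and ACLY, at 0.11, was not called. ELOVL1 was the 1 member lower (-0.17). The 23 higher cholesterol genes became 18, 17, 15 and 16 with 1 library left out and the 12 fatty acid genes 8, 7, 6 and 6, and calls were lost for PNPLA3 (1.47 to 2.0) without BCAA 1, BCAA 2 or no BCAA 2, ELOVL6 (0.89 to 1.06) without no BCAA 1 and ELOVL1 (-0.22 to -0.13) without any 1 library.

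TCACNCCAC, a form of the sterol regulatory element, was searched on both strands and found in the window of 1 of the 16 called cholesterol genes that have one, SREBF2, against 1.39% of genes with a window. ACAT2, FDFT1 and SQLE were among the members not matched to a window. The stretch is shown because SREBF2 encodes the factor that binds this element. It lies at chr22:41832942-41833010, forward strand, and the motif in capitals starts 133 bases before the start site.
SREBF2: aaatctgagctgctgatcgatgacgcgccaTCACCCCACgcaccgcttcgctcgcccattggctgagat

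Genes of DNA replication and cell division were higher with BCAA almost throughout. Of 50 replication genes, 48 were higher and 1 lower (median 0.98), and all 12 genes of deoxynucleotide supply were higher (median 1.06). In addition, 40 of 41 mitotic genes were higher (median 1.57), with none lower. Together the replication genes took 0.46% and 0.457% of the reads with BCAA and 0.247% and 0.246% without, and the mitotic genes took 0.635% and 0.633% of the reads with BCAA and 0.251% and 0.242% without. MCM10, which helps to start replication forks, stood at 3043 and 2720.2 with BCAA and 683 and 741 without (2.01), POLE2, a subunit of DNA polymerase epsilon, at 400.3 and 372 with BCAA and 119 and 137 without (1.59) and DSCC1, of the clamp loader, at 1767 and 1719.7 with BCAA and 588 and 643 without (1.5). All 6 subunits of the MCM helicase rose, from 0.47 in MCM7 to 1.28 in MCM3, with the sliding clamp PCNA at 1.43. RFC1, the large subunit of a clamp loader, was the 1 member lower (-0.14), and that call was lost under several settings, with an adjusted p of 0.083 under TMM scaling. RRM2, the small subunit of ribonucleotide reductase, stood at 8979 and 9015 with BCAA and 1628 and 1642 without (2.46, adjusted p = 2.1e-11). TK1, which supplies thymidine nucleotides, rose by 1.61. Of the mitotic genes, SPC24, a kinetochore protein, stood at 2512 and 2653 with BCAA and 431 and 505 without (2.47), CCNA2, cyclin A, at 6512 and 6506 with BCAA and 1478 and 1547 without (2.11) and the kinase AURKA at 5455 and 5074 with BCAA and 1414 and 1244 without (1.99). SPC25 (1.72) was the 1 mitotic gene not called, on means of 16.8 ± 1.98 with BCAA and 4.95 ± 3.54 without. The higher replication genes became 34, 36, 35 and 37 and the higher mitotic genes 38, 37, 38 and 38 with 1 library left out, and POLE2 lost its call without BCAA 1 (1.49 to 1.69).

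TTTNNCGC, a loose form of the site bound by E2F factors, lay in the window of 23 of the 41 called replication genes that have one, against 8.23% of genes with a window. DNA2, DSCC1, GINS4, MCM4, MCM5, POLD3, RPA2 and RPA3 were not matched to a window. The 2 holders with the largest rise are printed, POLE2 (chr14:49688258-49688325, reverse strand) and GINS1 (chr20:25407667-25407696, forward strand), with the motif or its reverse complement in capitals. The capitals begin 81 bases before the start site in POLE2 and just after it in GINS1.
POLE2: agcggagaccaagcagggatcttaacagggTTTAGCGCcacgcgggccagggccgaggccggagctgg
GINS1: agctttgttcgGCGCCAAAgcgcggagcgg

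Regulators of the G1 phase were more often higher than lower with BCAA. Of 28 tested, 14 (50%) were higher, 3 (10.7%) lower and 11 not called, with a median of 0.25. E2F2 stood at 537 and 528 with BCAA and 80.7 and 73.4 without (2.77), and E2F8, a repressive E2F, at 1016 and 995 with BCAA and 211 and 170.0 without (2.4). E2F7, its close relative, went the other way, at 1927 and 1933 with BCAA and 3503 and 3401 without (-0.84). CDKN2C, an inhibitor of CDK4 and CDK6, stood at 695 and 799 with BCAA and 132 and 113 without (2.6). The cyclins were split, with CCNE1 (1.54), CCNE2 (1.61) and CCND3 (1.55) higher and CCND1 lower, at 34698 ± 2750.1 with BCAA and 60610.3 ± 16.5 without (-0.81). The 14 higher members became 10, 10, 11 and 11 with 1 library left out. Of 22 targets of p53, 12 were lower and 5 higher (median -0.19). GADD45A, a growth arrest gene (-1.5), and the pro-apoptotic genes BBC3 (-1.22) and PMAIP1 (-1.07) were lower. GADD45A stood at 2597 and 2602 with BCAA and 7417 and 7337 without. CDKN1A, the inhibitor p21, stood at 23362 ± 50.6 with BCAA and 33358 ± 449 without (-0.51), while CCNG1 was higher (0.59) and lost its call without either no BCAA library (0.54 to 0.64). The 12 lower p53 targets became 6, 6, 6 and 5 with 1 library left out, and the 5 higher 1, 1, 0 and 0.

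**Figure D2:**
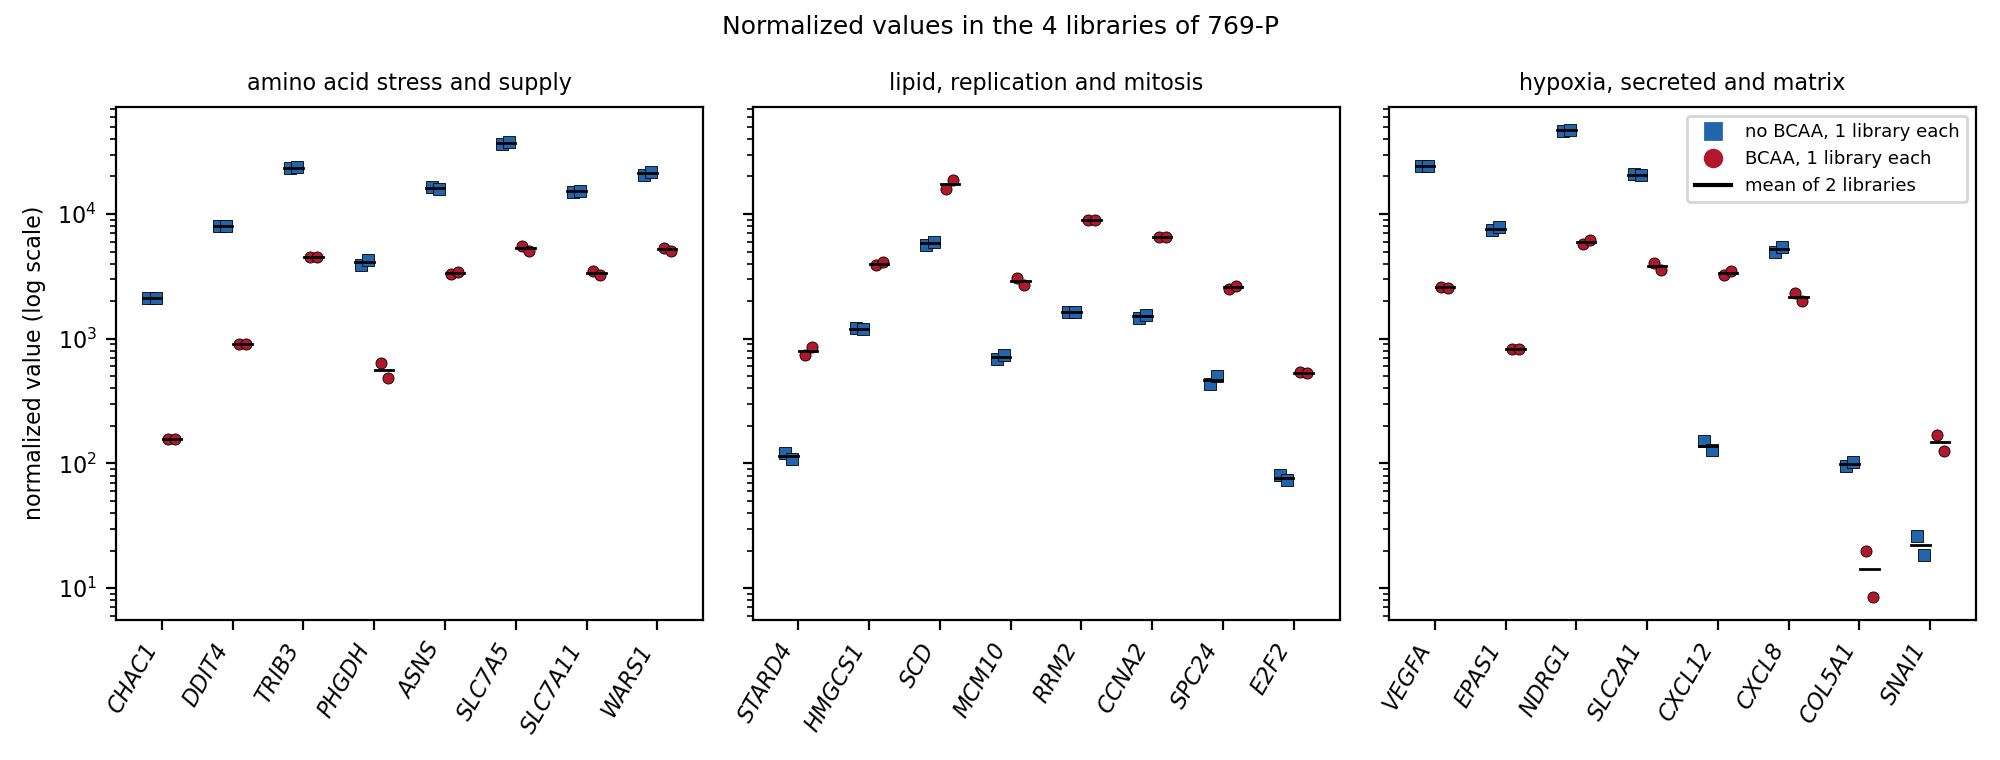
Normalized values (vertical axis, log scale) of 24 genes in each of the 4 libraries of 769-P, squares for the 2 libraries without BCAA, circles for the 2 with BCAA and bars for the mean of each pair. CHAC1, PHGDH, SLC7A5 and VEGFA are lower and STARD4, RRM2, CXCL12 and SNAI1 higher with BCAA. The 2 conditions are separate in every gene shown, which the rule that named most of these genes required. Over all genes tested, 33.6% were higher and 33.5% lower with BCAA without overlap. The 2 libraries of a condition lie close together except for COL5A1 with BCAA.

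Ribosomal protein genes were mostly lower with BCAA by small amounts. Of 73 genes for ribosomal proteins, 47 were lower with BCAA and 4 higher, with a median of -0.2, and they took 2.75% and 2.93% of the reads with BCAA and 3.39% and 3.42% without. RPS27 had the largest fall, at 225 and 269 with BCAA and 676 and 777 without (-1.55), followed by RPL13A (-0.8) and RPL12 (-0.69), and RPS26 the largest rise (0.66). Many of these genes have processed pseudogenes with which they can share reads, so that single values are uncertain. Of 36 genes of ribosome biogenesis, 14 were higher, 6 lower and 16 not called (median 0.03), none by 2-fold, with LTV1 (0.39), WDR12 (0.37) and UBTF (0.35) leading the rises and NOP14 (-0.47) the falls. Of the long RNAs that host small nucleolar RNAs, 11 of 16 were lower and none higher (median -0.53). GAS5, a growth arrest transcript that is degraded when it is translated, stood at 3920.0 and 4265 with BCAA and 16063 and 17171 without (-2.02), ZFAS1 at 497 and 523 with BCAA and 2587 and 2583 without (-2.34) and EPB41L4A-AS1 at 339.7 and 388 with BCAA and 1323 and 1223 without (-1.81). ZFAS1, GAS5 and EPB41L4A-AS1 share exon positions with other annotated genes. With 1 library left out, 21, 27, 5 and 4 ribosomal protein genes and 6, 7, 6 and 7 host RNAs were lower, 3, 5, 0 and 0 biogenesis genes were higher, and calls were lost for RPS27 (-1.68 to -1.43) without no BCAA 2, RPL12 (-0.76 to -0.61), WDR12 (0.36 to 0.39) and UBTF (0.33 to 0.36) without either no BCAA library and RPS26 (0.49 to 0.83) and LTV1 (0.28 to 0.49) without any 1 library.

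Most genes for the respiratory chain, the proteasome and heat shock proteins rose, few of them 2-fold. Of 49 nuclear genes for the respiratory chain and ATP synthase, 42 were higher and none lower (median 0.47), and 2 of them rose 2-fold or more. These were ATP5MC3, at 20841 and 22099.9 with BCAA and 7822 and 8105 without (1.43), and ATP5MC1, at 3508 and 3489 with BCAA and 1517 and 1614 without (1.16), which encode the same c subunit of ATP synthase, followed by UQCRFS1 of complex III (0.96). The 13 mRNAs of the mitochondrial genome were not analysed here. Of 30 proteasome genes, 28 were higher and none lower (median 0.47), with PSMA2 (1.09), PSMD1 (0.94) and PSMD13 (0.76) in front. Of 16 heat shock genes, 14 were higher and 2 lower (median 0.58). HSPE1, the mitochondrial co-chaperonin, rose by 1.48, the cytosolic HSP90AA1 by 1.24 and HSPH1 by 1.01. HSP90AA1 stood at 68551 and 70792 with BCAA and 29179.6 and 29829 without. HSPA9, the mitochondrial HSP70 (-0.45), and HSF1, the factor that drives the family (-0.28), were lower. With 1 library left out, the higher members became 27, 25, 15 and 17 for the respiratory chain, 20, 21, 13 and 15 for the proteasome and 11, 12, 8 and 10 for heat shock. PSMA2 lost its call without any 1 library (0.86 to 1.32) and HSPA9 without either no BCAA library (-0.46 to -0.44).

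Genes of the endoplasmic reticulum stress response went both ways. Of 23 genes of the unfolded protein response, 11 (47.8%) were higher and 8 (34.8%) lower (median 0.16), where 28.6% and 23.5% of protein-coding genes were. Among the higher members were the folding factors CALR, at 54142 and 56638 with BCAA and 20861 and 21855 without (1.37), SDF2L1 (1.29), MANF (1.11) and PDIA4 (1.11). The sensor ERN1, at 217 and 144 with BCAA and 673 and 714 without (-1.97), its target XBP1 (-1.44) and HERPUD1 (-1.28) and SEL1L (-1.12) of the degradation pathway were lower. HSPA5, the main chaperone of this compartment, was lower by a small amount (-0.24). The 11 higher members became 9, 8, 7 and 8 and the 8 lower 8, 7, 5 and 5 with 1 library left out. Calls were lost for SDF2L1 (1.14 to 1.43) without any 1 library and ERN1 (-2.26 to -1.67) without either no BCAA library.

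Autophagy, antioxidant and glucose genes were split, with single large falls. Of 39 genes for autophagy and lysosomes, 12 (30.8%) were lower and 10 (25.6%) higher (median -0.07). These shares are near those of all protein-coding genes tested, 23.5% lower and 28.6% higher. MAP1LC3B, which coats autophagosomes, stood at 3796 and 3977 with BCAA and 11191 and 11002 without (-1.51), and the kinase ULK1 (-0.98) and the receptor SQSTM1 (-0.91) were also lower, while the lysosomal galactosidase GLA was higher (0.89). Of 19 genes of the NRF2 and glutathione system, 10 were lower and 4 higher (median -0.21). The cystine carrier SLC7A11, at 3514 and 3255 with BCAA and 15113 and 15225 without, and HMOX1, heme oxygenase, at 699.8 and 667 with BCAA and 1771 and 1719 without (-1.35), led the falls, and GSR, glutathione reductase, the rises (0.75). Of 24 genes for glycolysis and glucose entry, 11 (45.8%) were higher and 9 (37.5%) lower (median 0.09). The enzymes PGAM1 (0.84) and PFKM (0.8) were higher, whereas the glucose carrier SLC2A1 stood at 4022 and 3575 with BCAA and 20773 and 20635 without (-2.45) and HK2, which phosphorylates glucose, was lower (-1.26). SLC2A3, a second glucose carrier, was called lower on 0 and 4 reads with BCAA and 21 and 14 without. ALDOC (1.03) lost its call without any 1 library (0.91 to 1.14) and GLA without BCAA 2 (0.82 to 0.96). In the fits without 1 library, counts were 8, 8, 6 and 6 lower for autophagy, 7, 6, 4 and 4 lower for NRF2 and 8, 8, 4 and 4 higher for glycolysis.

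Genes of hypoxia-inducible factors and their targets were mostly lower with BCAA. Of 22 tested, which count the factor gene EPAS1 along with targets, 16 were lower and 1 higher, with a median of -0.89. VEGFA, the main growth factor of blood vessels, stood at 2621 and 2533 with BCAA and 24271 and 24144 without, a log2 fold change of -3.23 (SE 0.04, adjusted p = 2.5e-12). EPAS1, which encodes HIF-2alpha, the factor that drives this tumour type, stood at 825 and 823 with BCAA and 7410.4 and 7807 without (-3.2), and NDRG1, a stress and hypoxia gene, at 5725 and 6143 with BCAA and 46716 and 47182 without (-2.98). ANGPTL4, a secreted lipase inhibitor (-2.68), and ADM (-2.64) were lower. VEGFA, ADM and SLC2A1 also stand in other lists here. The prolyl hydroxylase EGLN1 was the 1 member higher (0.15), and EGLN3 was lower (-0.87). HIF1A had means of 266 ± 20.1 with BCAA and 319.9 ± 23.6 without and was not called (-0.27). The 16 lower members became 11, 11, 7 and 8 with 1 library left out, and both EGLN1 (0.12 to 0.18) and EGLN3 (-0.93 to -0.81) lost their calls without any 1 library.

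Among the EMT transcription factors, SNAI1 and SNAI2 went in opposite directions. SNAI1 stood at 169.8 and 126 with BCAA and 26.1 and 18.3 without (2.68, SE 0.3, adjusted p = 1.7e-05), and SNAI2 at 25.8 and 23.1 with BCAA and 227 and 179.8 without (-3.0, SE 0.25, adjusted p = 1.6e-06). ZEB2 was lower, at 125 ± 1.93 with BCAA and 453 ± 4.6 without (-1.85), and ZEB1 (-0.00042) was not called. Of the 9 tested, 3 were higher and 2 lower, with TCF4 (0.61) and FOXC2 (0.34) also higher. The higher members, SNAI1 included (log2 fold change 2.44 to 2.93), lost their calls without any 1 library, whereas SNAI2 (-3.17 to -2.83) kept its call. Both SNAI1 and SNAI2 kept their direction in these fits, which have little power. Of 19 mesenchymal genes, 8 were lower and 6 higher (median -0.04). The actin-binding TAGLN, at 564 and 558 with BCAA and 1041 and 1153 without (-0.96), and the matrix protein CCN1 (-0.77) fell, while S100A4, a calcium-binding protein tied to cell motility, rose from 361 and 309 to 1475 and 1557 (2.18). FN1 (0.42) and MMP2 (0.71) were higher, CDH2 lower (-0.24) and VIM not called (-0.04). Of 21 epithelial genes, 6 were lower and 3 higher (median -0.08), with KRT7 at 653 and 673 with BCAA and 2429.6 and 2435 without (-1.87), PKP2 at -1.23, CLDN1 at -0.89 and, on the other side, CRB3 at 0.34. The largest rise of the list was that of KRT19 (1.92), which rests on few reads. CDH1 was not analysed here. With 1 library left out, 6, 5, 3 and 3 mesenchymal genes were lower and 2, 3, 1 and 1 higher, and 4, 4, 4 and 4 epithelial genes were lower. Calls were lost for PKP2 (-1.34 to -1.12) without either BCAA library and CRB3 (0.2 to 0.47) without any 1 library.

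Collagens and laminins were more often lower than higher, 15 against 5 of 26 (median -0.35). COL5A1, at 19.7 and 8.55 with BCAA and 95.6 and 103 without (-2.83), and COL12A1, at 50.8 and 28.2 with BCAA and 226 and 199 without (-2.45), rest on few reads, as does COL4A4 (-1.49). Of the members with more reads, LAMA5 stood at -1.1 and COL4A2 at -0.54 on the log2 fold change scale. COL13A1, with 172 and 120 reads with BCAA and 15 and 6 without, was higher (3.19), and so was COL8A1, at 470.1 and 481 with BCAA and 93.2 and 132 without (2.09). The log2 fold change of COL5A1 was -2.22 with a pseudocount of 10, which weighs most on genes with few reads. The 15 lower members became 12, 9, 2 and 2 with 1 library left out, and calls were lost for COL5A1 (-3.39 to -2.27) without BCAA 2, no BCAA 1 or no BCAA 2, COL12A1 (-2.87 to -2.04) without either no BCAA library, COL4A4 (-1.58 to -1.4) without any 1 library and COL8A1 (1.84 to 2.34) without either BCAA library.

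The NOTCH pathway, a cell contact signal in which cleaved receptors enter the nucleus, had 10 lower and 3 higher members of 28 (median -0.15). Target genes were lower where they were called, with HEY1 at 336 and 362 with BCAA and 755 and 707 without (-1.07), NRARP (-0.86) and HES4 (-0.74), and HES1 was not called (-0.08). Of the receptors, NOTCH1 (-0.73) and NOTCH2 (-0.3) were lower and NOTCH3 higher, at 92.5 and 63.3 with BCAA and 32.3 and 26.9 without (1.35). The modifying enzymes also differed, MFNG being lower (-1.02) and LFNG higher (0.53). The 10 lower members became 6, 5, 2 and 3 with 1 library left out, and calls were lost for MFNG (-1.27 to -0.78) without BCAA 1, BCAA 2 or no BCAA 1 and NRARP (-1.09 to -0.63) and NOTCH3 (1.08 to 1.62) without any 1 library.

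Growth factor signalling genes were mostly lower or not called. Of 18 immediate early genes, 7 were lower and 1 higher (median -0.23), with KLF4 at 1849 and 1748 with BCAA and 6178 and 6226 without (-1.79), JUN at -0.98 and MYC at 8188 and 7749 with BCAA and 13063 and 13648 without (-0.75). The 1 higher was FOS (2.31), with 70 and 33 reads with BCAA and 4 and 8 without. Of 14 feedback genes of the ERK pathway, 5 were lower and 2 higher (median -0.0016), among them the phosphatases DUSP4 (-1.53), DUSP5 (-0.76) and DUSP1 (-0.66), with the factor ETV1 higher (0.95). Of 20 genes downstream of insulin, FOXO and MondoA, 9 were lower and 5 higher (median -0.06). TXNIP and ARRDC4, 2 arrestins that MondoA induces and that limit glucose uptake, stood at 2583 and 3142 with BCAA and 16413 and 16943 without (-2.55) and at 221 and 272 with BCAA and 1255 and 1245 without (-2.34). IRS2, an adaptor of the insulin receptor, fell by 2.17, while IRS1 (0.7) and PIK3IP1 (1.39) were higher. With 1 library left out, the lower members were 6, 6, 4 and 4 for the immediate early genes, 3, 4, 2 and 3 for ERK feedback and 6, 4, 5 and 4 for the insulin, FOXO and MondoA genes. DUSP5 lost its call without no BCAA 1 (-0.8 to -0.72) and PIK3IP1 without any 1 library (1.27 to 1.51).

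Several chemokines and IL6 were lower with BCAA, and CXCL12 and CCL2 were higher. Of 21 cytokine genes tested, 10 were lower and 2 higher (median -0.39). CXCL8, which attracts neutrophils, stood at 2321 and 2012 with BCAA and 5001 and 5486 without (-1.28), CXCL2 at 80.4 and 88.9 with BCAA and 268 and 236 without (-1.56) and CXCL3 at 44 and 33.3 with BCAA and 111 and 102 without (-1.44). IL6 had 7 and 5 reads with BCAA and 45 and 84 without, so that its fall (-3.74) rests on few reads. CCL2, a monocyte chemokine, was higher with CXCL12, at 157 ± 46.4 with BCAA and 62.8 ± 8.02 without (1.28). Of 24 interferon and antigen presentation genes, 6 (25%) were higher and 7 (29.2%) lower (median 0.05). The shares were 20.3% and 18.2% of all genes tested, and 28.6% and 23.5% of protein-coding ones. TAP2 (-0.94) and the factor IRF1 (-0.8) were lower, and IFI44 was higher, at 1085 and 1116 with BCAA and 409.9 and 483 without (1.3). The lower cytokines became 4, 6, 3 and 4 and the lower interferon and antigen genes 5, 5, 3 and 3 with 1 library left out, and calls were lost for CXCL2 (-1.65 to -1.47) without BCAA 1 or no BCAA 1, CXCL3 (-1.64 to -1.25) and TAP2 (-1.2 to -0.69) without any 1 library, IRF1 (-0.89 to -0.71) without either no BCAA library and IFI44 (1.19 to 1.42) without either BCAA library.

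**Figure D3:**
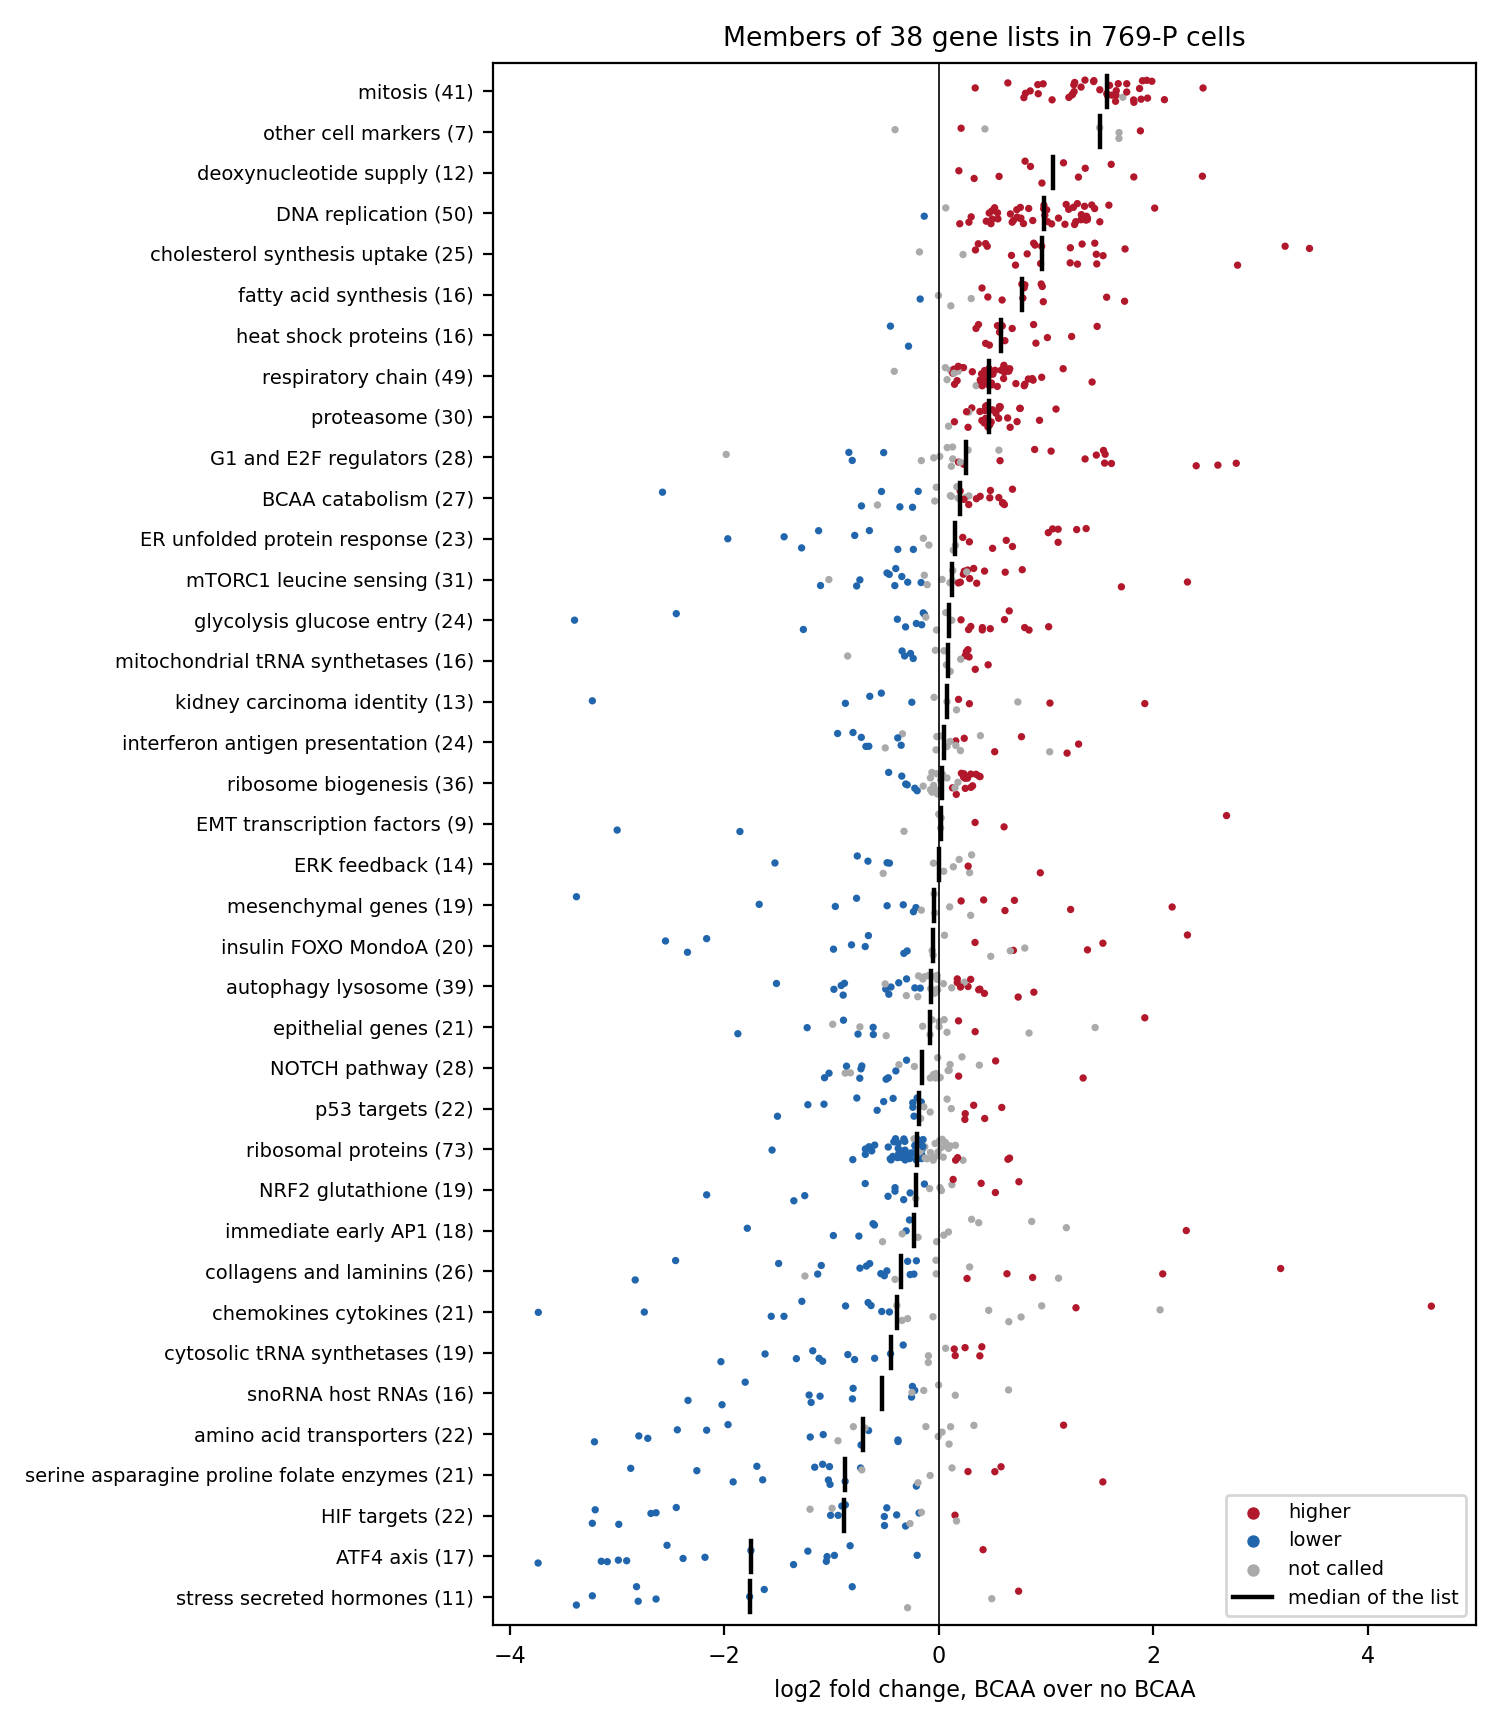
Log2 fold change (BCAA over no BCAA, horizontal axis) of every tested member of the 38 gene lists in 769-P, one list per line with its number of members in brackets, ordered by the median (black bar). Red and blue points are members called higher and lower with BCAA and grey points those not called, and the medians run from -1.76 in the stress-secreted hormones to 1.57 in the mitotic genes.

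The effect of BCAA in 769-P was set beside that in CAKI-1 to show where the response differs. Each effect was taken within its own table, and the difference was tested as an interaction over the 8 libraries and 19406 genes tested in both. The effect was higher in 769-P for 2122 genes (10.9%) and lower for 1966 (10.1%). The lines were grown in different media before the treatment (RPMI 1640 for 769-P and MEM for CAKI-1), so that line and medium cannot be told apart. Amino acid stress genes were lower with BCAA by more in 769-P. Of 17 ATF4 axis genes, 14 had a lower effect in 769-P (medians -1.75 in 769-P and -0.38 in CAKI-1). So had 11 of 20 serine, asparagine, proline and folate enzymes (-0.94 and -0.04) and 11 of 22 transporters (-0.71 and -0.01). In the list of HIF genes and targets it was 12 of 22 (-0.89 and -0.12). CHAC1 changed by -0.26 in CAKI-1, so that the difference was -3.48 (95% confidence interval -3.85 to -3.11, adjusted p = 2.1e-08). For PHGDH the CAKI-1 value was 0.0035 and the difference -2.88 (-3.18 to -2.57), and for VEGFA -0.42 and -2.81 (-3.14 to -2.49). In the other direction, 36 of 49 respiratory chain genes had a higher effect in 769-P (medians 0.47 and 0.04), with 18 of 24 cholesterol genes (0.95 and 0.32), 18 of 30 proteasome genes (0.47 and 0.19) and 12 of 15 heat shock genes (0.57 and 0.1). ATP5MC3 changed by 0.42 in CAKI-1, a difference of 1.01 (0.86 to 1.16).

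DNA replication genes were higher in both lines, with medians of 0.98 in 769-P and 0.91 in CAKI-1, and of 50 genes the effect was higher in 769-P for 4 and lower for 12. MCM10 rose by 2.38 in CAKI-1, and its difference of -0.36 (-0.64 to -0.08) did not pass the test (adjusted p = 0.066). E2F2 gave 2.99 in CAKI-1 and a difference of -0.21 with a wide interval (-0.98 to 0.56). The medians of the mitotic genes were 1.57 and 1.15, with a higher effect in 769-P for 19 of 41 and a lower one for 1. Those of the ribosomal protein genes were -0.2 and -0.34.

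**Figure D4:**
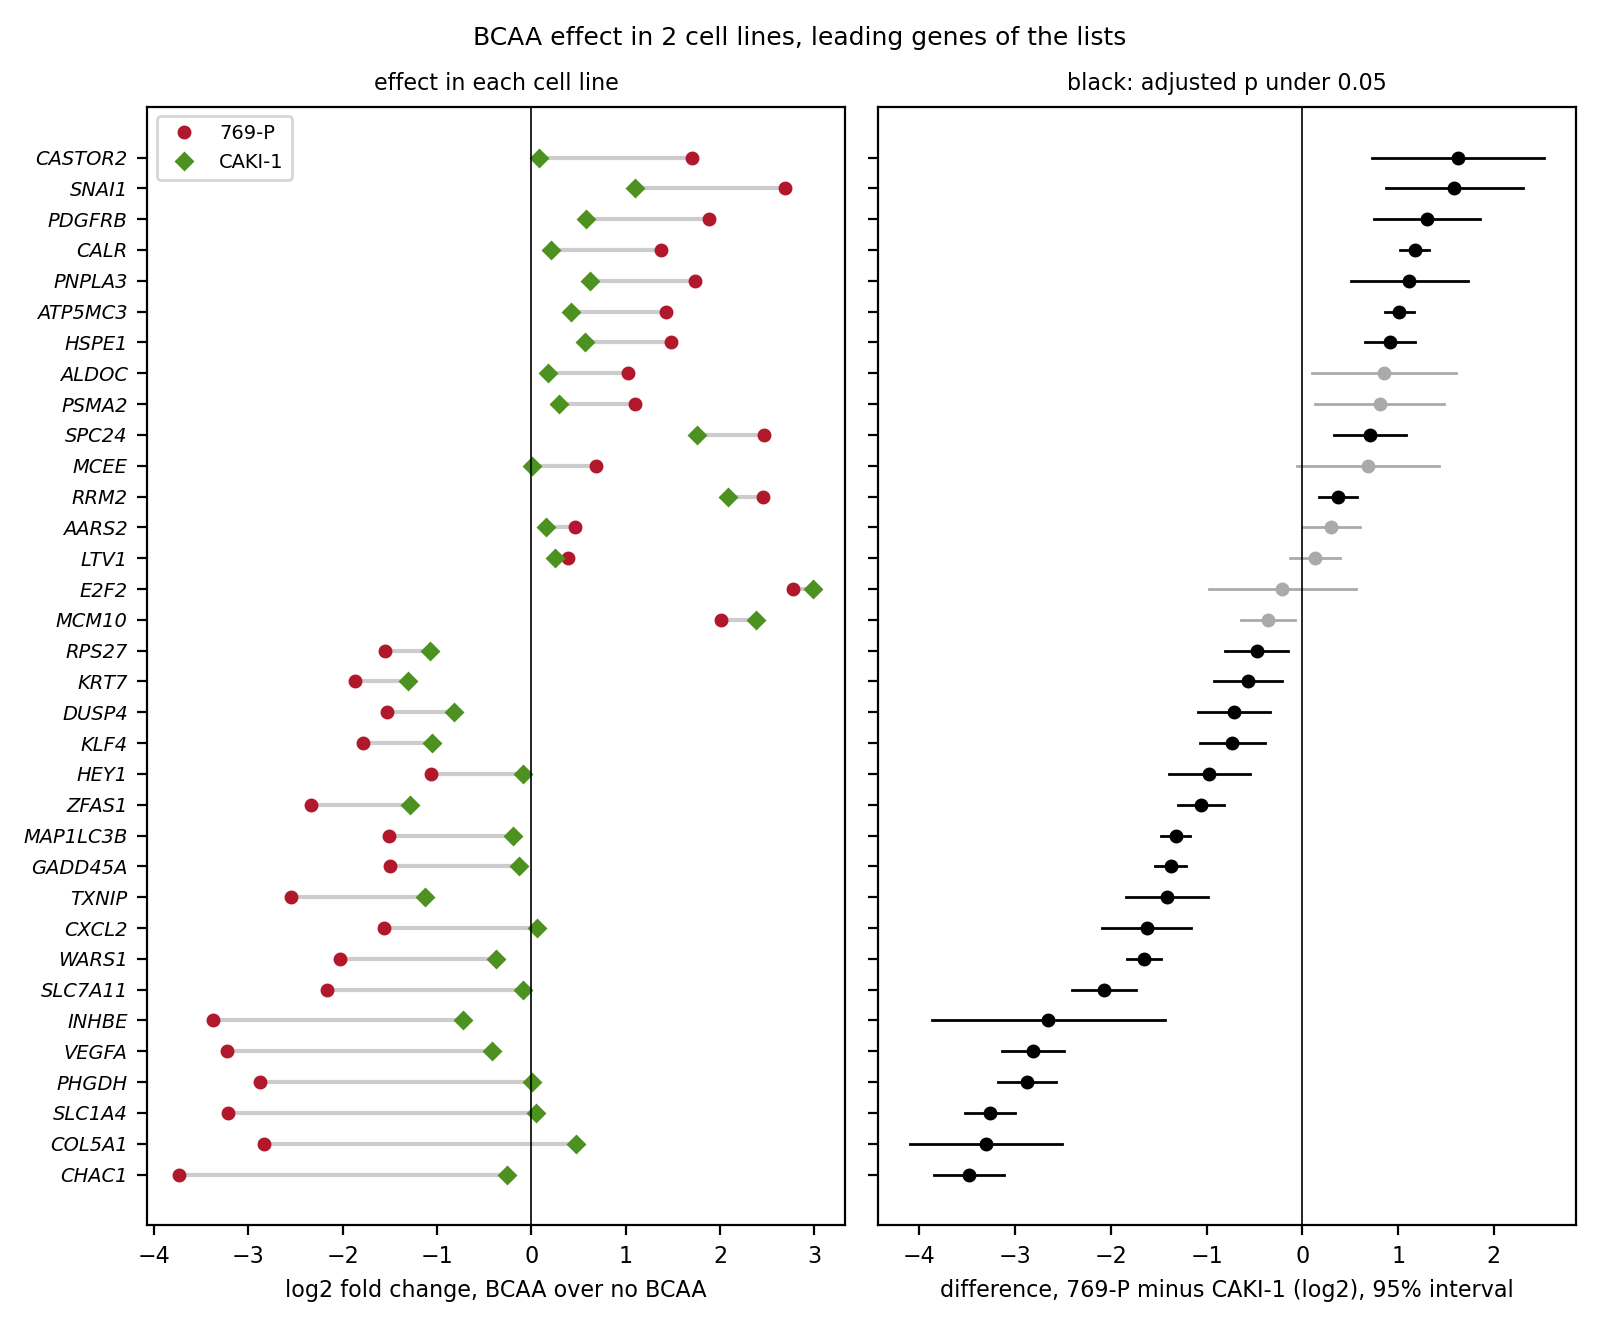
Left, log2 fold change (BCAA over no BCAA) in 769-P (circles) and CAKI-1 (diamonds) of leading genes of the lists, which were chosen by their change in 769-P. Right, the difference 769-P minus CAKI-1 with its 95% confidence interval, black where the adjusted p is under 0.05, which runs from -3.48 for CHAC1 to 1.63 for CASTOR2, with MCM10 and E2F2 among those whose difference was not called.

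Exons of 67 of the 165 genes named by rule, among them VEGFA, DDIT4, SLC7A5, ASNS and RRM2, share positions with another gene in GENCODE 29. The sources used here do not say whether the counting used strand, so that reads of overlapping genes on opposite strands may not have been told apart. A further 536 called genes had fewer than 10 reads in 1 or more libraries and are not described one by one.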

How the data were processed

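Total RNA was extracted from 769-P and CAKI-1 cells, and the submitters' processing notes name Trim Galore, TopHat2 2.1.0, SAMtools 1.3.1, HTSeq 0.6.0, DESeq and DESeq2 with the build hg38, without their roles or settings. The deposited values behave as a signal of read counts divided by a median-of-ratios size factor of each library, set within each line. Whole reads were recovered from the steps between values (100% of values within 0.01 of a whole read). Identifiers matched GENCODE 29 for 25032 of 25431 genes. Genes said above not to have been analysed were not found by name among those listed. The same holds for TAP1, PSMB8 and PSMB9 of antigen presentation.

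The main test was limma 3.58.1 (R 4.3.3), with a mean-variance trend and a pseudocount of 1 on the log2 scale, over genes that averaged at least 1 in the 4 libraries of 769-P, with Benjamini-Hochberg adjustment over all 22391 genes. Fold changes are on this log2(value + 1) scale, which understates the change of low genes. A gene was called at an adjusted p under 0.05. Differences between lines were tested by limma with an interaction term over 8 libraries. The single genes printed for it were chosen by their change in 769-P, which favours larger effects in 769-P. edgeR 4.0.16 and DESeq2 1.42.0 on recovered reads, other scalings, filters, pseudocounts, thinned reads, a replicate block and leaving out each library were alternatives. The scripts were tested on simulated data. The share of reads of a list is its recovered reads over all reads on listed genes. Depth was 39062721 to 64256834 reads in 769-P.

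The named genes were the 15 largest rises and 15 largest falls without overlap between conditions (mean of at least 100 in the higher condition, at least 10 reads in each library), the 10 most abundant genes that changed at least 2-fold, up to 3 called members in the main direction and 1 in the other of each list, and SNAI1. Further list members are given for their role and were chosen after their values were seen. The lists and members were chosen with earlier results of these data known. Some genes that the rule names are not reported here.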

Additional observations from a re-analysis of the deposited data

Results flagged for a closer look

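For 27 genes, leading members of their lists, the effect of BCAA differed between 769-P and CAKI-1 by the limma interaction test at an adjusted p of 0.05. A leading member was the named one that changed most in 769-P, in the main direction of its list. That choice by itself favours larger effects in 769-P, so the number of genes flagged is no measure of how far the lines differ. The values are differences of log2 fold changes, 769-P minus CAKI-1, so that a negative value marks a lower log2 fold change in 769-P. In the amino acid genes the difference was -3.481 for CHAC1, -3.258 for SLC1A4, -2.877 for PHGDH, -2.072 for SLC7A11 and -1.653 for WARS1. For the hormone subunit INHBE it was -2.654, but its means in CAKI-1 were low, at 7.98 with BCAA and 13.7 without. In stress, growth arrest and hypoxia genes it was -2.815 for VEGFA, -1.374 for GADD45A, -1.322 for MAP1LC3B and -1.416 for TXNIP. Among matrix and adhesion genes it was -3.302 for COL5A1, which has few reads in 769-P, and -0.5697 for KRT7. Among signalling genes it was -1.627 for CXCL2, -0.974 for HEY1, -0.7307 for KLF4 and -0.7099 for DUSP4. In the translation lists it was -1.056 for ZFAS1 and -0.4758 for RPS27.

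The difference was positive for the lipid gene PNPLA3 (1.116), for the amino acid sensing gene CASTOR2 (1.625) and for SNAI1 (1.588). It was also positive for the stromal marker PDGFRB (1.299), the folding factors CALR (1.172) and HSPE1 (0.9142) and the ATP synthase gene ATP5MC3 (1.012). RRM2 and SPC24 rose in both lines, and further in 769-P, by 0.3746 and 0.7081. Line and growth medium cannot be told apart in these differences.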

How the results depend on the processing

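The counts of 4536 higher and 4069 lower genes stayed within 1.5 times of these values under every test, scaling, filter, pseudocount and depth tried, and fell to 989 and 971 when a 2-fold change was also required. With 1 library left out, which assumes that the lone library of a condition varies like the other pair, they ranged from 1173 to 1632 higher and from 658 to 1456 lower. Without either no BCAA library 64.1% and 65.1% of the calls were higher, against 52.7% with all libraries. Median centring turned the balance, with 4098 higher and 4607 lower (47.1% higher). edgeR called 4874 higher and 3920 lower, DESeq2 4049 and 3535. The labels number the libraries 1 and 2 in both conditions, but deviations of same-numbered libraries did not go together (correlation -0.0148, and -0.0884 for genes with a mean of 100 or more), so the numbers were not taken to pair the libraries. A fit with the replicate number as a block gave 4692 higher and 4233 lower, and 2 of the 165 named genes, RFC1 and ALDOC, lost their call.

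Other changes of direction were in list medians near 0, and the cause was not tested. The median of the renal carcinoma markers was -0.0437 with a mean value of at least 10 and -0.0124 with thinned reads, and -0.079 to 0.1674 with 1 library left out. That of ribosome biogenesis was -0.0205 with median centring. The EMT factors gave -0.0287 with median centring, -0.0004 with a pseudocount of 10, -0.0074 with quantile normalization and -0.0871 to 0.3895 with 1 library left out, and the mesenchymal genes 0.0987 with quantile normalization. The ERK feedback genes gave 0.0205 with TMM, 0.021 with edgeR, 0.0153 with library totals, 0.0059 with thinned reads and -0.0514 to 0.0447 with 1 library left out. The interferon and antigen presentation genes gave -0.0011 with a mean of at least 10, -0.0126 with quantile normalization, -0.0086 with thinned reads and -0.0243 to 0.0879 with 1 library left out, and the insulin, FOXO and MondoA genes -0.1431 to 0.0083. The difference between lines for E2F2 was 0.27 with a pseudocount of 10. No named gene changed direction, 65 of 165 lost their call with 1 or more libraries left out and 100 kept it with each. With 2 libraries a condition, small changes of genes with few reads could not be detected reliably.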

Other observations

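Long intergenic noncoding, antisense and processed transcript genes had more calls lower than higher with BCAA, whereas protein-coding genes and processed pseudogenes had more calls higher. Of the 14212 protein-coding genes tested, 28.6% were higher with BCAA and 23.5% lower. Of 1476 long intergenic noncoding RNAs, 62 (4.2%) were higher and 135 (9.15%) lower, and of 1964 antisense RNAs 63 (3.21%) were higher and 139 (7.08%) lower. Processed transcripts without a reading frame, the class that holds several hosts of small nucleolar RNAs, had 10 higher and 40 lower of 209. Processed pseudogenes, which can take reads of their parent genes, had 248 higher (10.9%) and 186 lower (8.19%) of 2271. Other pseudogene classes did not lean higher. Transcribed unprocessed pseudogenes had 16 higher (5.73%) and 76 lower (27.2%) of 279. Unprocessed ones had 7 higher and 22 lower of 243, and transcribed processed ones 20 and 21 of 184. Noncoding genes are mostly low in level, and the share of genes called depended on level.

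The called protein-coding genes also differed in length. Their median exon length was 4837 bases in the genes higher with BCAA, 6064 in those lower and 4686 in those not called, and the median coding sequence had 434, 542 and 473.5 codons. Codons for leucine, isoleucine and valine made up a median of 20.9% of the coding sequence in the genes higher with BCAA, 19.9% in those lower and 20.6% in those not called, with quartiles that overlap widely (18.4% and 23.3%, 17.0% and 22.3%, and 17.7% and 23.1%). These are descriptions of the genes called, without a test.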
